A study of Mus musculus with 2 samples.

Results

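The genes described here encode the lysosomal proton pump, the cathepsins, the lysosomal membrane proteins LAMP and LAMTOR, and the machinery of autophagy. The rule was a match of symbols: all those beginning with Atp6v, Atp6ap, Lamp, Lamtor, Atg, Gabarap or Map1lc3 with the fixed endings of each family, the cathepsins Cts plus 1 letter, and Sqstm1, Tfeb, Becn1 and Ulk1. The rule found 65 of 10761 gene symbols, of which 19 belonged to the pump, 12 to the cathepsins, 7 to LAMP and LAMTOR and 27 to autophagy. They came from 77 rows of assembled transcripts, and 63 of the 65 had a mean level of at least 1 FPKM and were kept for comparison.

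The tissue was brown fat of male mice of the C57BL6/J strain, 8 to 12 weeks old. Animals of both groups were fed for 10 days on a high-fat diet (60% of kcal from fat). The HFD control group had the diet alone, and the SML group was also injected intraperitoneally with SML (5 mg per kg), a name that the labels do not spell out although the title of the series speaks of sesaminol from sesame. Each group is 1 library of poly(A) RNA, and no source used here states how many animals it pooled. No test could therefore be made, and each difference is one between 2 libraries.

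Lysosomes digest proteins, lipids and organelles in an acidic lumen. The vacuolar ATPase keeps that lumen acidic: its cytosolic V1 sector hydrolyses ATP and its membrane V0 sector carries protons across. Cathepsins are the lysosome's main proteases, and most of them need the acid to mature and work. Autophagy encloses cytoplasm in a membrane, marks it with lipid-bound proteins of the ATG8 family and delivers it to the lysosome. In brown fat, autophagy of mitochondria is known to take part in the loss of thermogenic character when the tissue whitens.

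Levels are given as the authors' FPKM (fragments per kilobase, relative to library size), which may be compared between genes. Differences are log2(FPKM + 1) in SML minus HFD control, and a gene is called higher or lower when this reached 1.5-fold. Ratios are SML over HFD control in scaled counts, with 95% exact binomial intervals that cover counting error only. The libraries held 12001476 fragments (HFD control) and 8503628 fragments (SML) in the deposited table. Brown fat markers were present, 11 of 12 of them at a mean of at least 1 FPKM, with Ucp1 at 8702 and 7955 FPKM. All 16 skeletal muscle markers were lower in the SML library, from 4560 to 313 FPKM in sum, and the part of muscle fibres in the values below was not tested. In bulk tissue, fewer cells of a type and less RNA per cell cannot be told apart.

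The lysosomal and autophagy genes as a whole differed between the libraries about as much as all kept genes did. None of the 63 kept genes was higher and 5 were lower, where 5.45% of all 9870 kept genes were higher and 5.74% lower. The lower ones were Ctss, Atp6v0e2, Atp6v1f, Atg101 and a row named Atp6v0c-ps2, whose identity is uncertain as described below. The median difference was -0.12, beside 0 over all kept genes, and 22 genes lay above 0 and 41 below. Their typical size of difference was that of any gene: the median absolute difference was 0.22 in both sets, and 30 of the 63 lay between the quartiles of all genes, -0.21 and 0.22. Counting intervals lay above 1 for 12 members, below 1 for 29 and held 1 for 22, while 48.6% of all kept genes had an interval that excluded 1. The members' median level in HFD control was 32.9 FPKM, beside a median mean level of 8.17 FPKM over all kept genes, and higher counts give narrower intervals. At 2-fold 2 members were lower, Atp6v0e2 and the uncertain row, and none higher, beside 1.97% and 0.669% of all kept genes. The group's summed level was 8059 FPKM in HFD control and 7257 FPKM in SML.

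**Figure D1:**
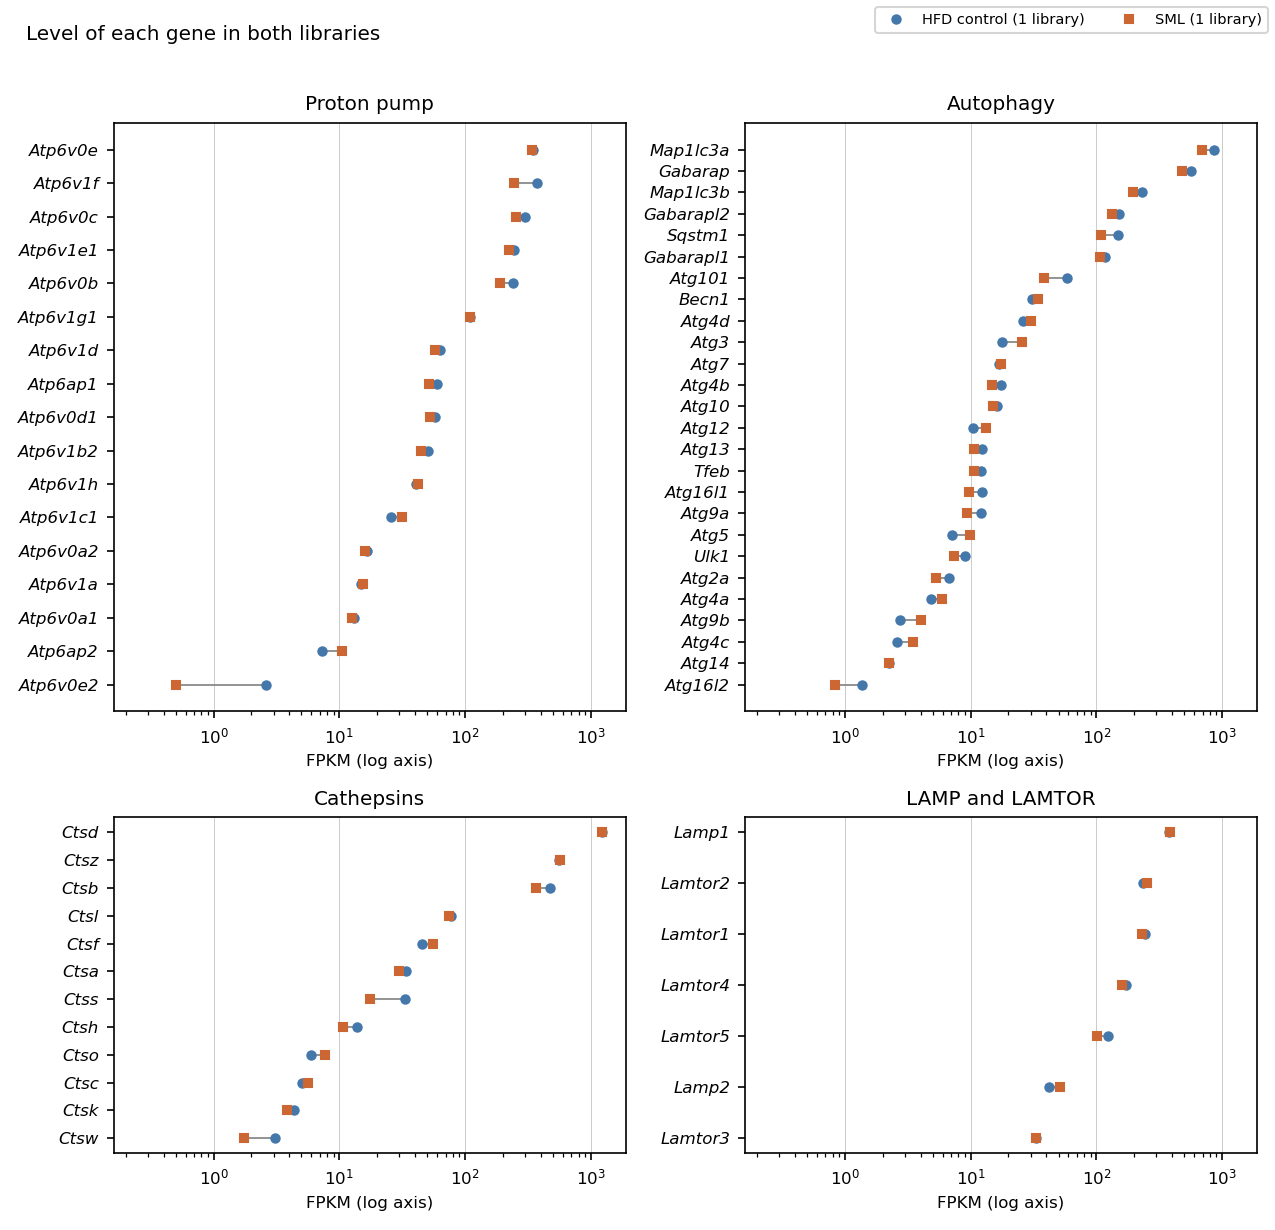
Level of each kept gene in FPKM (log axis) in the HFD control library (circles) and the SML library (squares), by group, ordered by mean level and without Atp6v0c-ps2. Most pairs nearly overlap, and the levels within each group span more than a factor of 10, from 1.37 FPKM (Atg16l2) to 1236 FPKM (Ctsd) in HFD control.

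Subunits of the proton pump were expressed at very unequal levels. In the V1 sector, Atp6v1f, a subunit of the central stalk, stood at 376 FPKM in HFD control and 246 FPKM in SML. Atp6v1e1, a peripheral stalk subunit, stood at 244 and 222 FPKM. Atp6v1g1, its partner there, stood at 110 FPKM in both libraries. These stalk subunits were more abundant than the subunits of the catalytic head: Atp6v1a, which binds and hydrolyses ATP, stood at 14.8 and 15.4 FPKM, and Atp6v1b2, the partner that alternates with it, at 51 and 44.8 FPKM. Atp6v1h, Atp6v1d and Atp6v1c1, which join or regulate the sectors, lay between 25.5 and 62.6 FPKM in HFD control.

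Of the 8 kept V1 genes 1 was lower and none higher, beside 5.74% and 5.45% of all kept genes. At these shares 8 genes are too few to read such counts. The V1 genes had 4 differences above 0 and 4 below and a median of -0.05. Atp6v1f was the lower gene, with a ratio of 0.649 (0.603 to 0.698) on 2265 and 1081 fragments and a difference of -0.61, just past the size rule. It was under the rule with totals made equal outside the 50 highest genes (-0.56) and after removal of the GC and length trend (-0.46). The peripheral stalk genes did not share this: the ratio was 0.998 (0.918 to 1.09) for Atp6v1g1 and 0.909 (0.861 to 0.960) for Atp6v1e1. Atp6v1d, the other central stalk subunit, had a ratio of 0.921 (0.835 to 1.02). The highest V1 gene was Atp6v1c1, which connects the sectors, with a ratio of 1.23 (1.10 to 1.38). For the catalytic Atp6v1a the ratio was 1.05 (0.935 to 1.17). Atp6v1c2, a tissue-restricted form of that connecting subunit, was under the level filter at 0.53 and 1.37 FPKM on 10 and 18 fragments.

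In the V0 sector the proteolipid ring genes were abundant. Atp6v0c, which encodes the main ring protein, stood at 301 and 256 FPKM, and Atp6v0b, a related ring protein, at 239 and 189 FPKM. Atp6v0e, a small membrane subunit, was the most abundant V0 gene in both libraries at 345 and 338 FPKM. The large subunit that forms the proton path came from 2 genes at low levels, Atp6v0a1 (13.1 and 12.6 FPKM) and Atp6v0a2 (16.7 and 16.1 FPKM). Atp6v0d1, which joins the ring to the V1 stalk, stood at 57.8 and 52.1 FPKM.

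All 7 V0 genes at their own locus had a difference below 0, from -1.26 to -0.03, although 5 of 7 did so with totals made equal outside the 50 highest genes, 5 of 7 with the trend over GC content and length removed, and 6 of 7 with only the highest transcript of each gene. Atp6v0b had a ratio of 0.785 (0.736 to 0.837), Atp6v0c of 0.848 (0.806 to 0.893) and Atp6v0e of 0.974 (0.919 to 1.03). Atp6v0e2, the second form of the small membrane subunit, was lower, at 2.6 FPKM in HFD control and 0.5 FPKM in SML. Its ratio was 0.191 (0.0786 to 0.402) on 57 and 8 fragments, while the abundant form Atp6v0e was close to equal. Of the accessory subunits, Atp6ap1 had 60.2 and 51.5 FPKM with a ratio of 0.855 (0.789 to 0.926). Atp6ap2, which is also known as the prorenin receptor, went the other way with 7.31 and 10.4 FPKM and a ratio of 1.42 (1.17 to 1.73).

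A pair of rows did not sit where their names belong. The row named Atp6v0c-ps2 stood at 19.4 FPKM in HFD control and was listed at 0 in SML, on 241 and 0 fragments, which is at least 59.1-fold lower against a floor of 3 fragments per library. Its deposited coordinates were those of Atp6v0c (chr17:24163865-24169429, mm10), in the same gene model, whereas GENCODE places the processed pseudogene of this name at chr6:37806086-37806550. Reads of a gene and its near-identical copy cannot be told apart by such counting. With both rows joined, Atp6v0c stood at 320 and 256 FPKM with a ratio of 0.798 (0.759 to 0.840), which did not reach the size rule. The row named Atg4a lay at chr3:103575282-103646068, where GENCODE has the gene Syt6 and the retrogene Atg4a-ps, while Atg4a itself is at chrX:140956907-141164270. That row had 4.87 and 5.94 FPKM and a ratio of 1.22 (0.935 to 1.58). Without both rows 4 genes were lower and the pump median was -0.11 in place of -0.12.

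**Figure D2:**
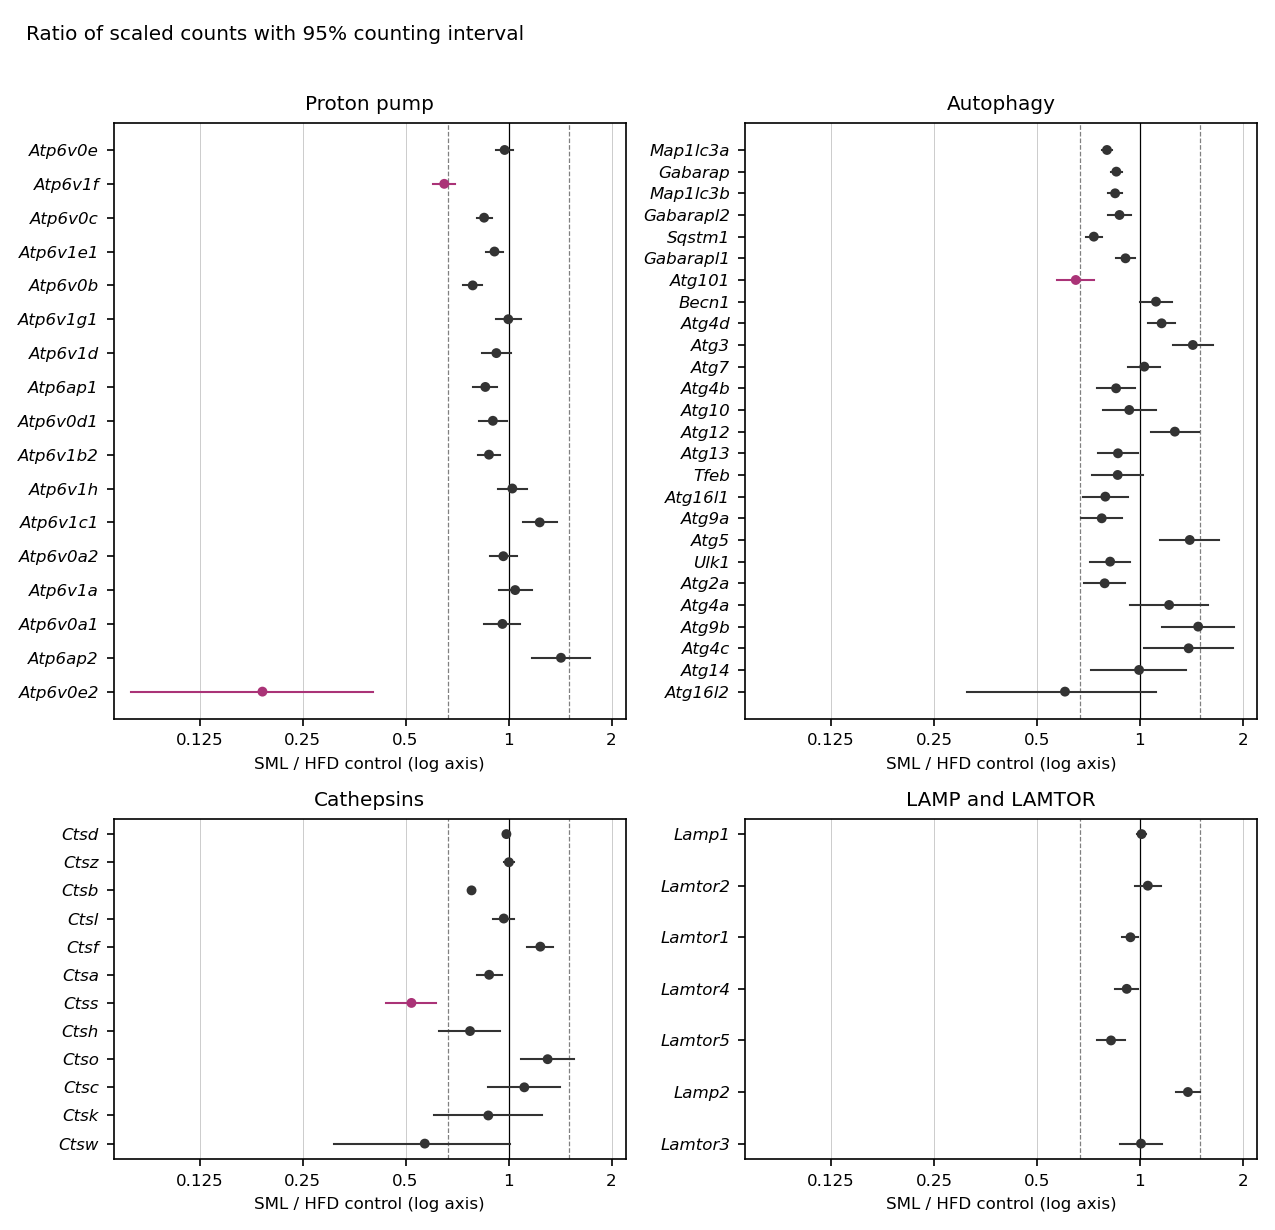
Ratio of scaled counts, SML over HFD control, on a log2-spaced axis, with the 95% counting interval for each kept gene, in order of mean level. Dashed lines mark 1.5-fold in each direction and coloured points mark the genes called lower: Atp6v1f, Atp6v0e2, Ctss and Atg101 (Atp6v0c-ps2 is not drawn).

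The cathepsins included the most abundant genes of the group. Ctsd, the aspartic protease of lysosomes, stood at 1236 FPKM in HFD control and 1221 FPKM in SML, rank 131 and 122 of all kept genes. Ctsz, a carboxypeptidase, stood at 561 and 564 FPKM. Ctsb, a cysteine protease that acts as endo- and exopeptidase, stood at 469 and 366 FPKM. Together these made up most of the cathepsin total of 2488 FPKM in HFD control and 2358 FPKM in SML. Next came Ctsl, an endopeptidase, at 76.6 and 74.3 FPKM, and Ctsf, a widely expressed cysteine cathepsin, at 45.1 and 55.9 FPKM. Ctsa, a serine carboxypeptidase that also shields other lysosomal enzymes, stood at 34.2 and 30.1 FPKM.

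Of the 12 cathepsins 1 was lower and none higher, beside 5.74% and 5.45% of all kept genes. At these shares 12 genes are too few to read such counts. Their median difference was -0.10 with 4 above 0 and 8 below, where 49.9% of all kept genes lay above 0. The values of the abundant proteases were unlike one another. Ctsd had a ratio of 0.985 (0.968 to 1.0) on 29069 and 21080 fragments. Ctsz had a ratio of 1.0 (0.971 to 1.03). For Ctsb, counted about as deeply with 28397 and 16287 fragments, the ratio was 0.779 (0.764 to 0.795), so its interval lay apart from those of Ctsd and Ctsz but short of the size rule. The 2 cathepsins highest relative to control were Ctso at 1.30 (1.09 to 1.56) and Ctsf at 1.24 (1.13 to 1.35), neither past the rule. Ctsh, an aminopeptidase, had a ratio of 0.771 (0.627 to 0.945).

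Ctss, the cathepsin of antigen-presenting cells that trims the invariant chain of MHC class II, was the lower cathepsin. It stood at 33.3 FPKM in HFD control and 17.4 FPKM in SML, with a ratio of 0.520 (0.439 to 0.613) on 520 and 199 fragments. Both of its assembled transcripts were lower, the major one from 24.3 to 14.6 FPKM and the minor one from 9.03 to 2.82 FPKM. Its locus, chr3:95526786-95556405, lies beside that of Ctsk, the collagen-degrading cathepsin known from osteoclasts, at chr3:95499210-95509387. Ctsk did not share the difference, with 4.36 and 3.81 FPKM and a ratio of 0.872 (0.604 to 1.25). Other cathepsins known from leukocytes were low: Ctsw, of cytotoxic lymphocytes, had 3.08 and 1.76 FPKM and a ratio of 0.569 (0.309 to 1.01) on 43 and 18 fragments, and Ctsc, which activates granule proteases, had 5.07 and 5.65 FPKM and a ratio of 1.11 (0.872 to 1.42).

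Most macrophage markers lay below control, as Ctss did. Of 16 kept markers 8 were lower and 1 higher, beside 5.74% and 5.45% of all kept genes, with a median difference of -0.60. Their summed level was 603 FPKM in HFD control and 376 FPKM in SML. Adgre1 had a ratio of 0.549 (0.407 to 0.733), C1qc, a complement subunit, of 0.519 (0.450 to 0.597) and Cd68, a macrophage relative of LAMP, of 0.580 (0.450 to 0.742), beside 0.520 for Ctss. Csf1r, at 0.759 (0.635 to 0.905), and Fcgr1, at 0.785 (0.465 to 1.30), were nearer to control than Ctss, and Mrc1 lay above control at 1.23 (0.913 to 1.66). No kept marker was at 0, and Cd14 was the higher one at 1.77 (1.35 to 2.33). Ctsb, Ctsh and Ctsz, which macrophages also express, had ratios of 0.779, 0.771 and 1.0. The part of macrophages in these values was not tested. T and NK cell markers, the cells of Ctsw, had 0 of 5 kept members past the rule and sums of 18.7 and 19.3 FPKM.

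**Figure D3:**
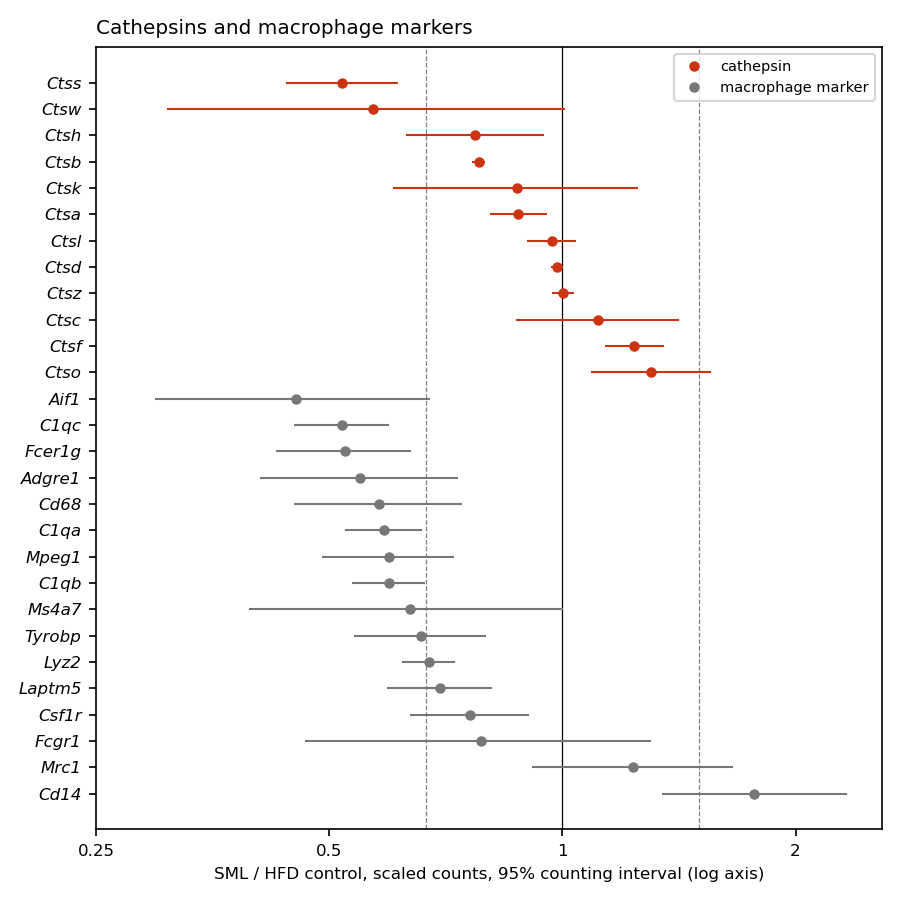
Ratio of scaled counts, SML over HFD control (log2-spaced axis), with 95% counting intervals for 12 cathepsins and 16 macrophage markers, and dashed lines at 1.5-fold. Ctss (0.520) lies among the markers, of which 14 of 16 are below 1, while Ctsd and Ctsz lie at 1.

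Compared by group, the cathepsins did not stand apart from the pump or from autophagy. The median difference was -0.10 for cathepsins, -0.12 for the pump and -0.18 for autophagy genes. The cathepsin median was thus 0.02 above that of the pump and 0.08 above that of autophagy, while single cathepsins ranged from -0.90 to 0.33. Without the cathepsins known from immune cells, the accessory pump genes and the 4 single autophagy genes, these gaps were 0.08 and 0.12. With 1 library per group the gaps have no error from replicates. In counts, summed cathepsins had a ratio of 0.904 (0.894 to 0.915), the pump of 0.886 (0.869 to 0.903) and autophagy genes of 0.860 (0.846 to 0.873). LAMP and LAMTOR together had 1.01 (0.985 to 1.03). Such sums follow the most counted genes and do not describe each member. Among the cathepsins Ctsb had 0.779, but Ctsd 0.985 and Ctsz 1.0, and in FPKM the summed cathepsins had 0.948. Within autophagy the ATG8 family had 0.838 (0.822 to 0.855), the 4 single genes 0.806 (0.7705 to 0.8422) and the Atg genes 0.973 (0.939 to 1.01).

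The lysosomal membrane genes had the smallest median absolute difference of the 4 groups, 0.09. Past the rule were 0 of 7, beside 5.45% higher and 5.74% lower among all kept genes, shares at which 7 genes are too few to read a 0. Their median difference was 0.02, or -0.05 with only the highest transcript of each gene. Lamp1, the most abundant glycoprotein of the lysosomal membrane, stood at 378 and 383 FPKM with a ratio of 1.01 (0.982 to 1.04) on 10406 and 7746 fragments. Lamp2, its relative that is required for chaperone-mediated autophagy in one of its forms, stood at 41.8 and 51.8 FPKM, with a ratio of 1.38 (1.28 to 1.5). LAMTOR proteins form the Ragulator complex that anchors mTORC1 signalling on the lysosome. Lamtor1, the membrane anchor, stood at 246 and 231 FPKM, Lamtor2 at 236 and 252 FPKM and Lamtor4 at 173 and 160 FPKM. Lamtor5 was the lowest relative to control with a ratio of 0.823 (0.748 to 0.905), and Lamtor3 was the least abundant, at 32.9 and 33.2 FPKM with a ratio of 1.01 (0.875 to 1.16). Of the 5 members of this complex 4 thus lay above 100 FPKM, and all 5 stayed within 1.5-fold.

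Autophagy begins with the ULK1 kinase complex. Ulk1, the kinase, stood at 9.04 and 7.4 FPKM with a ratio of 0.819 (0.716 to 0.934), and Atg13, its adaptor, at 12.4 and 10.7 FPKM. Atg101, which binds and stabilises Atg13, was more abundant and was lower in SML, at 58.5 and 38.1 FPKM. Its ratio was 0.649 (0.574 to 0.734) on 814 and 389 fragments and its difference of -0.60 was just past the rule. The scaffold of the complex, Rb1cc1, is not part of the naming rule but of a pathway list, and it was higher, from 1.44 to 3.66 FPKM with a ratio of 2.54 (2.05 to 3.17). Subunits of 1 complex thus differed in opposite directions, although Atg101 was under the rule with totals made equal outside the 50 highest genes (-0.55) and with the GC and length trend removed, where Rb1cc1, at 0.73, was past it.

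The next steps make phosphatidylinositol 3-phosphate and supply lipid. Becn1, of the lipid kinase complex, had 30.6 and 34.2 FPKM and a ratio of 1.11 (1.0 to 1.24), and Atg14, which targets this kinase to autophagy, had 2.24 and 2.23 FPKM. Atg9a, the scramblase of the vesicles that seed the membrane, had 12.2 and 9.41 FPKM with a ratio of 0.773 (0.675 to 0.886), whereas its relative Atg9b had 2.72 and 4.03 FPKM with a ratio of 1.48 (1.16 to 1.89). Atg2a, which transfers lipid, had 6.77 and 5.35 FPKM. For its relative Atg2b the FPKM was 1.16 in HFD control and listed at 0 in SML, yet the scaled counts were 97.5 and 89.2, so that the 0 was not an absence of fragments, and its mean level put the gene under the filter. Its count ratio was 0.915 (0.706 to 1.18).

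Genes of the conjugation system, which attaches ATG8 proteins to lipid, went in both directions. None passed the rule, beside 5.45% higher and 5.74% lower among all kept genes. Atg3, the E2-like enzyme that transfers ATG8, had the highest difference of all kept members, 0.49, at 17.7 and 25.4 FPKM with a ratio of 1.43 (1.25 to 1.63). Atg5 had 7.09 and 9.93 FPKM and a ratio of 1.40 (1.15 to 1.70), and Atg12, the ubiquitin-like protein joined to it, 10.4 and 13.2 FPKM and a ratio of 1.27 (1.08 to 1.49). Atg7, the E1-like enzyme, was near equal at 16.8 and 17.3 FPKM, as was Atg10, the E2-like enzyme for Atg12, at 16.3 and 15.2 FPKM. Atg16l1, which completes the complex with Atg5 and Atg12, had 12.2 and 9.62 FPKM and a ratio of 0.792 (0.681 to 0.921). Its relative Atg16l2 had 1.37 and 0.83 FPKM on 36 and 16 fragments. Among the proteases that trim ATG8 proteins, Atg4d had a ratio of 1.16 (1.05 to 1.27), Atg4b of 0.852 (0.750 to 0.967) and Atg4c of 1.39 (1.03 to 1.87). For Atg4c the direction turned with only the highest transcript (-0.13).

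The ATG8 family, the ubiquitin-like proteins that coat the autophagosome, was abundant and lay slightly below control in all 5 genes. Map1lc3a stood at 861 and 693 FPKM, Gabarap at 563 and 482 FPKM and Map1lc3b at 232 and 197 FPKM. Gabarapl2 stood at 152 and 133 FPKM and Gabarapl1 at 117 and 106 FPKM. Their ratios ran from 0.801 (0.776 to 0.828) for Map1lc3a to 0.908 (0.852 to 0.966) for Gabarapl1. All 5 intervals lay below 1, where 48.6% of all kept genes had a counting interval that excluded 1 in either direction. The family's median level in HFD control was 232 FPKM, beside a median mean level of 8.17 FPKM over all kept genes. Higher counts give narrower intervals, so these sets are not alike in depth. None of the 5 genes reached the size rule, beside 5.45% higher and 5.74% lower among all kept genes. Their sum was 1924 FPKM in HFD control and 1611 FPKM in SML. With the trend over GC content and length removed 4 of 5 were below 0, Gabarapl1 being at 0.01.

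Sqstm1, which encodes the receptor p62 that ties cargo to ATG8 proteins and is itself degraded with it, stood at 149 and 110 FPKM. Its ratio of 0.733 (0.694 to 0.775) on 3587 and 1936 fragments was short of the rule, and its 2 transcripts had ratios of 0.691 (0.646 to 0.739) and 0.839 (0.759 to 0.928). Tfeb, the transcription factor known to drive lysosomal and autophagy genes, stood at 12.1 and 10.6 FPKM, with a ratio of 0.861 (0.723 to 1.02).

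In several of these genes the total hid opposite differences of assembled transcripts. For Tfeb, the transcript that dominated the HFD control library went from 11.9 to 5.22 FPKM, while the second went from 0.14 to 5.33 FPKM, on 4 and 109 fragments. The second thus held 1.14% of the gene's scaled counts in HFD control and 49.8% in SML. For Atg9a the major transcript had 9.81 and 3.24 FPKM and the minor one 2.34 and 6.17 FPKM. For Atg16l1 a transcript with 225 fragments in HFD control had 0 in SML, at least 55.2-fold lower against the floor of 3 fragments, while another went from 4.75 to 8.89 FPKM. The 2 transcripts of Lamp2 had 14.7 and 25.7 FPKM against 27.0 and 26.1 FPKM, so that the higher total came from the first. Atp6v0a1 had 9.27 and 11.2 FPKM in its major transcript and 3.79 and 1.36 FPKM in its minor one. For Atg4c the major transcript had 2.4 and 2.1 FPKM, and only the minor one was above control, at 0.2 and 1.35 FPKM on 8 and 39 fragments. The table gives each gene's rows the same coordinates, so that which exons differ cannot be named, and the way the assembly divided fragments among transcripts was not tested.

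**Figure D4:**
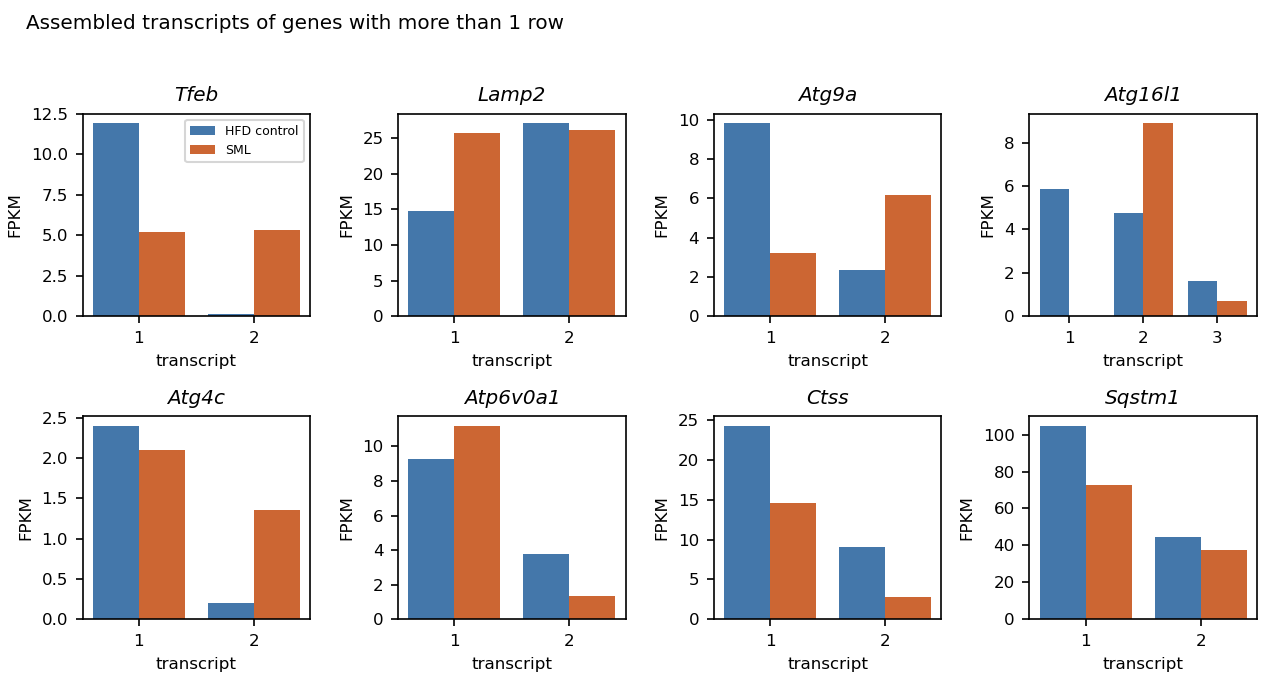
FPKM of the assembled transcripts of 8 genes with more than 1 row in the HFD control library (left bar of each pair) and the SML library (right bar), numbered by scaled count in HFD control. Transcript 2 of Tfeb goes from 0.14 to 5.33 FPKM and transcript 1 of Atg16l1 from 5.86 FPKM to a listed 0.

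Promoters of lysosomal genes are known to carry the CLEAR element, an E-box (CACGTG) within a palindrome that TFEB and its relatives bind. RefSeq promoter windows (GRCm38.p6, 250 bases before to 50 bases after a start) were found for 50 of the 63 genes at their own locus. The E-box letters CACGTG, which read the same on both strands, were present in the windows of 15 of 50 genes (30%), beside 12.2% of 7595 kept genes with a window and 8.09% of all 27025 genes in the reference. The longer form TCACGTGA, which contains the E-box, was present in 6 of 50 (12%), beside 2.33% of kept genes and 1.12% of all. A still longer palindrome built around TCACGTGA was present in 0 of 50, beside 0.869% of kept genes and 0.37% of all. At these shares 50 genes are too few to read a count of 0. By group the E-box was in 4 of 13 pump windows, 4 of 9 cathepsin windows, 3 of 6 LAMP and LAMTOR windows and 4 of 22 autophagy windows. A match describes letters and not a binding site.

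The stretches below show these letters in chosen genes of each group whose windows hold them. Ctsd has a further E-box outside its stretch, with its first base at -245 from the start. E-boxes, or the 8-letter form where it is whole, are in capitals, each stretch is read 5′ to 3′ on the gene's strand, and the build is GRCm38.p6. That of Ctsd is at chr7:142387900-142387945 (minus strand), that of Atp6v1a at chr16:44139365-44139410 (minus), that of Atp6v0b at chr4:117887330-117887385 (minus), that of Atg3 at chr16:45158715-45158783 (plus) and that of Lamp1 at chr8:13159080-13159160 (plus).
Ctsd: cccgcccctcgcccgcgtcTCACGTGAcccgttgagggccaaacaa
Atp6v1a: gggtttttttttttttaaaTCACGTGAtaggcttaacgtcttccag
Atp6v0b: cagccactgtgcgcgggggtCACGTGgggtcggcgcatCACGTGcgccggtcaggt
Atg3: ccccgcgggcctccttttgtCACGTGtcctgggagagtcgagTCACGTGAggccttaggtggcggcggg
Lamp1: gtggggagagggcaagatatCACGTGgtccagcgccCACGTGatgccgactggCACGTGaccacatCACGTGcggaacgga
Lamp1 had 4 E-boxes within 81 bases before its start, and Atp6v0b had 2. The differences of the 15 genes with an E-box ran from -0.34 (Atp6v0b) to 0.49 (Atg3) with a median of -0.02. The 33 kept genes whose window held none had a median of -0.19 and ran from -1.26 to 0.46. Among all kept genes with and without an E-box the medians were 0.02 and -0.0045. The part of the E-box in these medians was not tested. Of the 15 genes none was lower and of the 33 genes 4 were. Among all kept genes with and without an E-box 3.67% of 927 and 6.06% of 6668 were lower, shares at which 15 genes are too few to read a count of 0.

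Sequence composition moved with the differences among these genes and among all genes. Over 61 kept genes at their own locus the difference had a Spearman rho of -0.384 with the GC content of annotated transcripts, and over 9524 kept genes of -0.313. These points share both libraries, so the values are descriptions. Of 32 genes at or above 51.4% GC, the median of all kept genes, 24 lay below 0 (75%), beside 62.1% of all kept genes in that range. Of 29 genes under it 16 did (55.2%), beside 37.9% of all, and their median of -0.03 was below that of all such genes, 0.10. Several genes above control were low in GC (Atg3 44.8%, Atg5 44.6%, Atg12 44.3%, Atp6ap2 40.5% and Lamp2 41.6%), and the lower genes Atp6v1f and Atg101 were at 55.3% and 58.0%. Others went against the trend: Ctsf at 62.8%, Atg9b at 58.5%, Atg4d at 54.5%, Atg7 at 53.9% and Atp6v1c1 at 53.7% were above control, and Ctss at 45.9% was lower. With the trend removed 3 of all 63 kept members were lower and none higher, beside 4.91% and 4.38% of the 9524 kept genes. The uncertain row Atp6v0c-ps2 was among the 3, at -4.18, but is not among the 61 genes at their own locus. Ctss was then at -0.95 and Atp6v0e2 at -1.17, both still lower, while Atp6v1f at -0.46 and Atg101 at -0.44 no longer passed the rule. Atp6ap2 was at 0.16 and Lamp2 at 0.06.

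**Figure D5:**
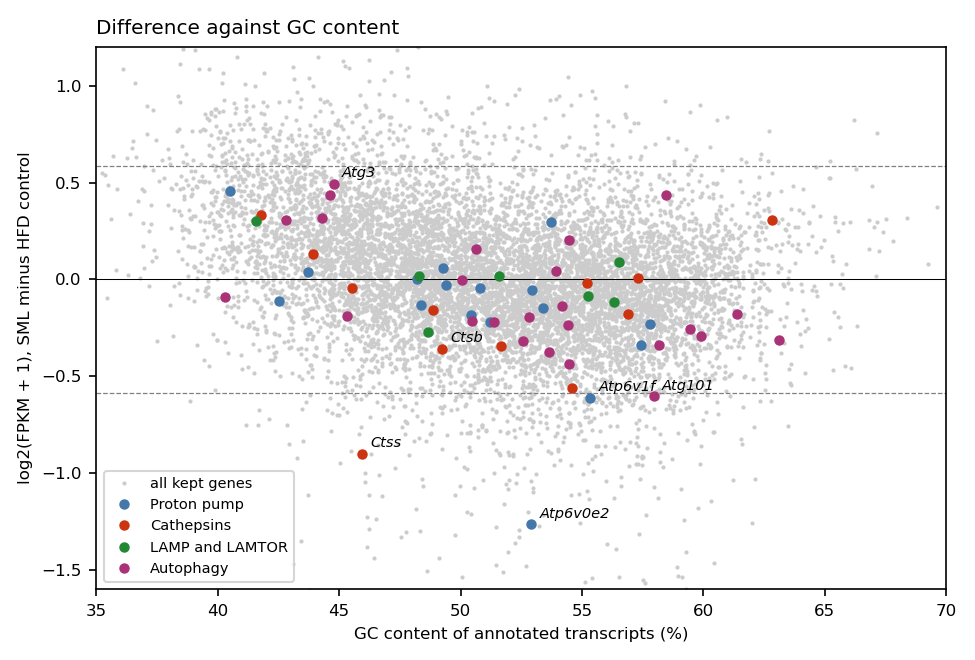
Difference in log2(FPKM + 1), SML minus HFD control, against the GC content of annotated transcripts in percent for 9524 kept genes (grey, 139 outside the plotted range) and the 61 kept group members at their own locus (coloured). Dashed lines mark 1.5-fold, and Ctss and Atp6v0e2 lie well under the lower line.

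Counts past the rule in further lists of lysosome and autophagy genes stand beside 5.45% higher and 5.74% lower among all kept genes. At these shares a count of 0 or 1 in a list of 28 genes or fewer cannot be read as a result about its genes. Of 40 lysosomal hydrolases and their cofactors none was past the rule, and the median was -0.05. Psap, the precursor of the saposins that help degrade sphingolipids, was the most abundant at 1005 and 824 FPKM with a ratio of 0.820 (0.805 to 0.834). Acp5, an acid phosphatase, followed at 283 and 335 FPKM with a ratio of 1.18 (1.13 to 1.23). Of 28 lysosomal membrane and trafficking genes 1 was lower, the macrophage marker Cd68, and none higher, with a median of -0.06. Among the abundant ones, Npc2, the cholesterol carrier of the lumen, stood at 185 FPKM in both libraries, and Laptm4a at 214 and 160 FPKM.

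In signalling from the lysosome, 1 of 22 kept genes of mTORC1 and the Rag GTPases was higher and none lower, with a median of 0.06. Among all kept genes 5.45% were higher and 5.74% lower, for this and the next lists. Fnip1, a partner of folliculin, was the higher gene at 1.26 and 2.82 FPKM with a ratio of 2.24 (1.74 to 2.89), but at 0.41 with the GC and length trend removed it was under the rule. Akt1s1, an mTORC1 inhibitor, stood at 64.4 and 62.8 FPKM. Rragc, a Rag GTPase, stood at 52.8 and 56.7 FPKM. Of 19 other autophagy genes Rb1cc1 was the 1 higher and none was lower (median 0.03), while Vamp8, a fusion protein of autophagosomes, stood at 173 and 159 FPKM. Of 13 autophagy receptors 0 were past the rule, with a median of 0.12, or -0.05 with only the highest transcript of each gene. Of the 13 receptors 8 lay above 0 and 5 below. The lowest were Fam134b, with a ratio of 0.603 (0.425 to 0.845), and Calcoco1, with a ratio of 0.706 (0.630 to 0.792). Among receptors on mitochondria, Bnip3 had 205 and 242 FPKM with a ratio of 1.18 (1.13 to 1.23). Bnip3l had a ratio of 1.21 (1.11 to 1.32) and Fundc1 of 1.40 (1.17 to 1.68), although Bnip3l was at 0.01 with the GC and length trend removed. Pink1, the kinase that marks damaged mitochondria, had 243 and 211 FPKM with a ratio of 0.867 (0.835 to 0.90).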

How the data were processed

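The authors deposited 1 table of assembled transcripts, with FPKM values and a count column per library. CASAVA 1.8, Cufflinks and the build mm10 are named per the submitters' processing notes. Aligner, annotation and filters: not given in the sources used here. Values in the authors' deposited count columns form a scaled signal and not raw counts: low values moved in steps of 0.637 (HFD control) and 0.866 (SML), and 90.7% of 538 and 90.4% of 783 values of up to 20 steps were whole multiples within 0.1. Fragments are scaled counts divided by that step. In 1037 transcripts a scaled SML count above 1 stood beside an FPKM of 0, and the number for HFD control was 0. Such zeros move FPKM differences toward lower in SML only. Among members' transcripts there was 1, that of Atg2b. Without the level filter 66.1% of genes past the rule were lower, beside 51.3% with it.

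Transcripts were summed by symbol, without 17 symbols turned into dates. Genes with a mean of at least 1 FPKM were kept (pseudocount 1). Deposited starts were taken as 0-based, since 30.3% lay exactly 1 base below GENCODE M21 starts and 3.51% equalled them, and are printed 1-based. GC content and length are medians over GENCODE M21 transcripts, and their trend was a quadratic fit over kept genes. Work was done in Python 3.11.15 with pandas 2.3.3, numpy 2.4.6 and scipy 1.17.1. Members and lists were chosen with earlier results of these data known. Named genes were members past the rule, the 3 most abundant and the 2 at each end of each class, and, of the pathway lists, members past the rule and the 2 most abundant; others named were chosen after their values were seen.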

Additional observations from a re-analysis of the deposited data

How the results depend on the processing

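No paired analysis was possible because each group had 1 library. Alternatives covered the pseudocount, the level filter, the scaling, scaled counts in place of FPKM, the highest transcript per symbol and removal of the GC and length trend; leaving out 2 misplaced rows was added after seeing the data. Of the alternatives at 1.5-fold, 6 could change a single gene's value (the level filter and a centring on the median could not): Ctss, Atp6v0e2 and Atp6v0c-ps2 were lower under all 6, and Atp6v1f and Atg101 under 4. A filter of 5 FPKM leaves Atp6v0e2 out. The number of lower genes, 5, became 3 with totals equal outside the 50 highest genes, 3 without the GC and length trend and 2 at 2-fold. The number of higher genes, 0, became 1 without a filter (pump, Atp6v1c2) and 1 with the highest transcript (autophagy, Atg16l1). Lower autophagy genes, 1 in the report, numbered 2 with a pseudocount of 0.1, 2 without a filter, 2 in scaled counts and 3 with the highest transcript. Without a filter the added gene was Atg2b, through its listed SML FPKM of 0. Lower autophagy genes numbered 0 with totals equal outside the 50 highest genes, at 2-fold and without the GC and length trend. Lower cathepsins, 1 in the report, numbered 2 with a pseudocount of 0.1 and in scaled counts (Ctsw joining Ctss) and 0 at 2-fold. The medians of the pump, cathepsins and autophagy were below 0 under every setting run, and that of LAMP and LAMTOR was -0.05 with the highest transcript and above 0 otherwise. Of 63 kept genes 48 had 1 sign under every setting run and 15 changed sign under some setting. Depth limits the low genes: 56 of 63 had at least 100 fragments in both libraries.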

Other observations

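Of 4 kept genes for inhibitors of cathepsins and related proteases 3 lay below control. Cst3, which encodes the secreted inhibitor cystatin C, stood at 4540 FPKM in HFD control and 3367 FPKM in SML, with a ratio of 0.737 (0.724 to 0.750), and Cstb, the cytosolic cystatin B, at 299 and 204 FPKM with a ratio of 0.676 (0.621 to 0.735). Serpinb6a, a serine protease inhibitor of the cytosol, was the 1 of 4 kept inhibitors past the 1.5-fold rule, beside 5.74% of all kept genes lower. It stood at 40 and 23.3 FPKM with a ratio of 0.615 (0.535 to 0.706). Cst7, a cystatin of leukocytes, went the other way on 10 and 11 fragments. The 4 had a median difference of -0.49 beside -0.10 for the 12 cathepsins; this gap has no replicate check. Macrophage markers summed to 603 and 376 FPKM beside these genes, and their part was not tested.

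Endothelial markers were also below control, with 1 of 6 past the rule, Cdh5, and a median of -0.48. Fibroblast markers had 0 of 5 past it and a median of 0.09. Among all kept genes 5.45% were higher and 5.74% lower. Of 6 kept mast cell and neutrophil markers 3 were higher, Cpa3, Tpsb2 and S100a8, all under 4 FPKM in both libraries and S100a8 on 3 and 8 fragments.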
